A study of Mus musculus with 16 samples.

Results

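The genes described here are 10 receptors, bridging proteins and adaptors of efferocytosis, the uptake of dying cells by phagocytes: Axl, Mertk, Tyro3, Gas6, Pros1, Mfge8, Timd4, Adgrb1, Lrp1 and Elmo1. They were found by symbol among the 54532 gene identifiers counted in each library, and each of the 10 symbols matched 1 identifier. RNA was sequenced from macrophages obtained by growing mouse bone marrow cells for 7 days in M-CSF (20 ng/ml), a growth factor of the macrophage lineage. The cells were then kept for 24 h with or without 70% medium in which melanoma cells of the mouse line YUMM1.7 had grown (tumor-conditioned medium, TCM), which carries what those tumor cells secrete.

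The 16 libraries fall into 5 groups. TRAP1 KO TCM (n = 4) holds cells of mice that lack TRAP1, a mitochondrial chaperone of the HSP90 family, kept with TCM. WT TCM (n = 3) and WT naive (n = 3) hold wild-type cells with and without TCM. JMJD3 cKO TCM (n = 3) holds cells of conditional knockout mice for JMJD3, the histone H3 demethylase encoded by Kdm6b, and JMJD3 WT TCM (n = 3) those of the wild type of that line, both kept with TCM. The labels give neither the Cre driver of the conditional knockout nor the deleted exons, the sex or age of the mice or the number of animals, and do not say whether replicates were separate animals or cultures. The p-values therefore rest on differences among these libraries, and that spread may be technical.

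Macrophages recognise a dying cell mainly by phosphatidylserine on its outer surface. Axl, Mertk and Tyro3, the TAM receptor tyrosine kinases, do not bind it directly but through the bridging proteins Gas6 and protein S (Pros1), while Mfge8 links it to alpha-v integrins, and Timd4 (TIM-4) and Adgrb1 (BAI1) bind it themselves. Lrp1 is a large endocytic receptor that takes up dying cells with calreticulin, and Elmo1 is the adaptor that, with a DOCK protein, activates the GTPase Rac so that the membrane closes around the target.

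In the GRCm38 (mm10) build the TAM receptor genes lie at chr7:25757273-25788705 on the minus strand (Axl), chr2:128698956-128802894 on the plus strand (Mertk) and chr2:119797733-119818104 on the plus strand (Tyro3). The bridging protein genes lie at chr8:13465374-13494490 on the minus strand (Gas6), chr16:62854307-62929346 on the plus strand (Pros1) and chr7:79133768-79149060 on the minus strand (Mfge8). Timd4 lies at chr11:46810800-46844332 on the plus strand, Adgrb1 at chr15:74516195-74589465 on the plus strand, Lrp1 at chr10:127538161-127621148 on the minus strand and Elmo1 at chr13:20090596-20608353 on the plus strand. All 10 are annotated as protein coding, and a count covers all exons of the gene. Exons of Gas6 overlapped those of Tmem255b on the opposite strand by 34 bases, and exons of Elmo1 overlapped the antisense gene Gm32036 by 403 bases. Tmem255b had at most 22 counts and Gm32036 at most 10 in any library, against at least 6687 for Gas6 and 990 for Elmo1.

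Axl, Mfge8 and Timd4 were the members that changed at least 2-fold in a comparison, so the 250 bases upstream of their RefSeq transcription start sites (GRCm38.p6) are shown, 5′ to 3′ on the gene's own strand, with the matches to 10 searched motifs in capitals.
Axl (chr7:25788734-25788983, minus strand): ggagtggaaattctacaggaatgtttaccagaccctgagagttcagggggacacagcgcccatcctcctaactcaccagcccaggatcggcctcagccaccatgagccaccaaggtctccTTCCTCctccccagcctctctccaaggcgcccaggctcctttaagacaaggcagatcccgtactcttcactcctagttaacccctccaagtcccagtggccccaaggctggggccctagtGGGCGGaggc
Mfge8 (chr7:79149061-79149310, minus strand): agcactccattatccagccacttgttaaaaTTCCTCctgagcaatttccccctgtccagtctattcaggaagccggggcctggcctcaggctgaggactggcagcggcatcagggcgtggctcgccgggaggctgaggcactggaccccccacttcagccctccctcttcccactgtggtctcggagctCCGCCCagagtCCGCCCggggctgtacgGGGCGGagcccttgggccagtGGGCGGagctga
Timd4 (chr11:46810549-46810798, plus strand): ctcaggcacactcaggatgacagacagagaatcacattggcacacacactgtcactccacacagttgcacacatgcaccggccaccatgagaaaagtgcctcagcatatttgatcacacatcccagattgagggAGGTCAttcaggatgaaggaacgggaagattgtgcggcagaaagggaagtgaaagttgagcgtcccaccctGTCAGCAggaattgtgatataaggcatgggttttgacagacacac
In the Axl promoter the capitals mark a PU.1 core (GAGGAA, here read on the other strand) 130 to 125 bases upstream of the start and a GC box (GGGCGG) 10 to 5 bases upstream. The Mfge8 promoter held 1 PU.1 core, at 220 to 215 bases upstream, and 4 GC boxes within 61 bases of the start, a pair of them on each strand. The Timd4 promoter held no GC box. Its capitals mark a nuclear receptor core (AGGTCA) at 116 to 111 bases and a Maf core (TGCTGAC, read on the other strand) at 45 to 39 bases upstream. Of 32851 RefSeq promoter windows of the same length, 32.7% held a GC box, 23.3% a PU.1 core, 14% the nuclear receptor core and 3.81% the Maf core, on either strand. The other 6 motifs searched had no match in these 3 windows. They were the AP-1 element (TGANTCA, in 6.75% of windows), the core of the hypoxia element (ACGTG, 16.6%), direct repeats of the nuclear receptor core with 4 bases between them (0.0152%) or 1 (0.0335%), a STAT element (TTCNNNGAA, 7.02%) and an interferon response core (GAAA, any 2 bases and GAAA, 2.98%). A match is a run of letters only, and binding was not measured. Across the 10 genes, 9 had a RefSeq promoter entry, and GC boxes were found in at least 1 entry of all of these but Timd4.

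Trap1 was at 1, 1, 1 and 0 counts in the TRAP1 KO TCM libraries, against 67.7 ± 5.36 CPM (counts divided by the scaled library total, so that libraries of unlike depth can be compared) in WT TCM and 68.0 ± 1.36 CPM in WT naive (SD, n = 3 each). Kdm6b averaged 25.5 ± 0.931 CPM in JMJD3 cKO TCM and 25.1 ± 1.70 CPM in JMJD3 WT TCM (SD, n = 3 each), a difference of 0.04 on the log2 scale (95% interval -0.11 to 0.18, edgeR adjusted p = 0.749). Whole-gene counts cannot show whether part of the gene was deleted, so these groups are named by their labels alone. Total counts were 15361604 to 22426820 per library, and mitochondrially encoded genes took 0.744% to 1.45% of them. The summed level of 8 macrophage markers was 25939 to 26096 CPM in TRAP1 KO TCM, 26548 to 27232 in WT TCM, 16198 to 16291 in WT naive, 13086 to 13546 in JMJD3 cKO TCM and 16512 to 16911 in JMJD3 WT TCM, with all 8 detected in each group. Most of these differences lay in Lyz2, at 17179 to 17435 CPM in TRAP1 KO TCM, 17699 to 18252 in WT TCM, 7955 to 8001 in WT naive, 4454 to 4647 in JMJD3 cKO TCM and 7207 to 7660.0 in JMJD3 WT TCM, while the other 7 markers summed to 8217 to 9305 CPM in all libraries. Xist was at 838 CPM or more in each library of the JMJD3 line and at 0.0499 CPM or less in the other 10, and Ddx3y, a Y-linked gene, had 0 counts in the JMJD3 line and 83.4 CPM or more in the others. Line and sex cannot be told apart between these sets of libraries, so each knockout was tested against its own wild type only.

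Levels per kilobase of exon, which can be compared between genes, put the bridging protein Gas6 and the receptor Lrp1 above all other members in every group. In WT TCM, Gas6 stood at 436 ± 5.06 CPM per kb, Lrp1 at 156 ± 1.87, Axl at 47.4 ± 1.52, Mertk at 32.6 ± 0.111, Mfge8 at 13.0 ± 0.184, Pros1 at 9.39 ± 0.328 and Elmo1 at 8.09 ± 0.335 (SD, n = 3). In WT naive the order from the third place down differed, with Mfge8 at 34.3 ± 0.291 CPM per kb, Mertk at 30.4 ± 0.426 and Axl at 17.0 ± 0.409 (SD, n = 3). Timd4 had 1.04 ± 0.136 CPM per kb in TRAP1 KO TCM (SD, n = 4) and 0.130 or less as a mean in each other group.

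Tyro3, the third TAM receptor, was near the limit of detection everywhere, with 9 counts summed over the TRAP1 KO TCM libraries, 3 over WT TCM, 5 over WT naive, 2 over JMJD3 cKO TCM and 5 over JMJD3 WT TCM. It did not pass the filter on low counts in any fit and was not tested. Adgrb1, the receptor BAI1, had 0 counts in all 10 libraries outside the JMJD3 line, where a count of 0 allows up to 0.0383 CPM over the TRAP1 KO TCM libraries, 0.0559 CPM over WT TCM and 0.0453 CPM over WT naive, for counting error alone. In the JMJD3 line it had 7, 4 and 5 counts in JMJD3 cKO TCM and 5, 6 and 4 in JMJD3 WT TCM, a ratio of the summed rates of 0.819 (exact 95% Poisson interval 0.379 to 1.78). It was not tested either.

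**Figure D1:**
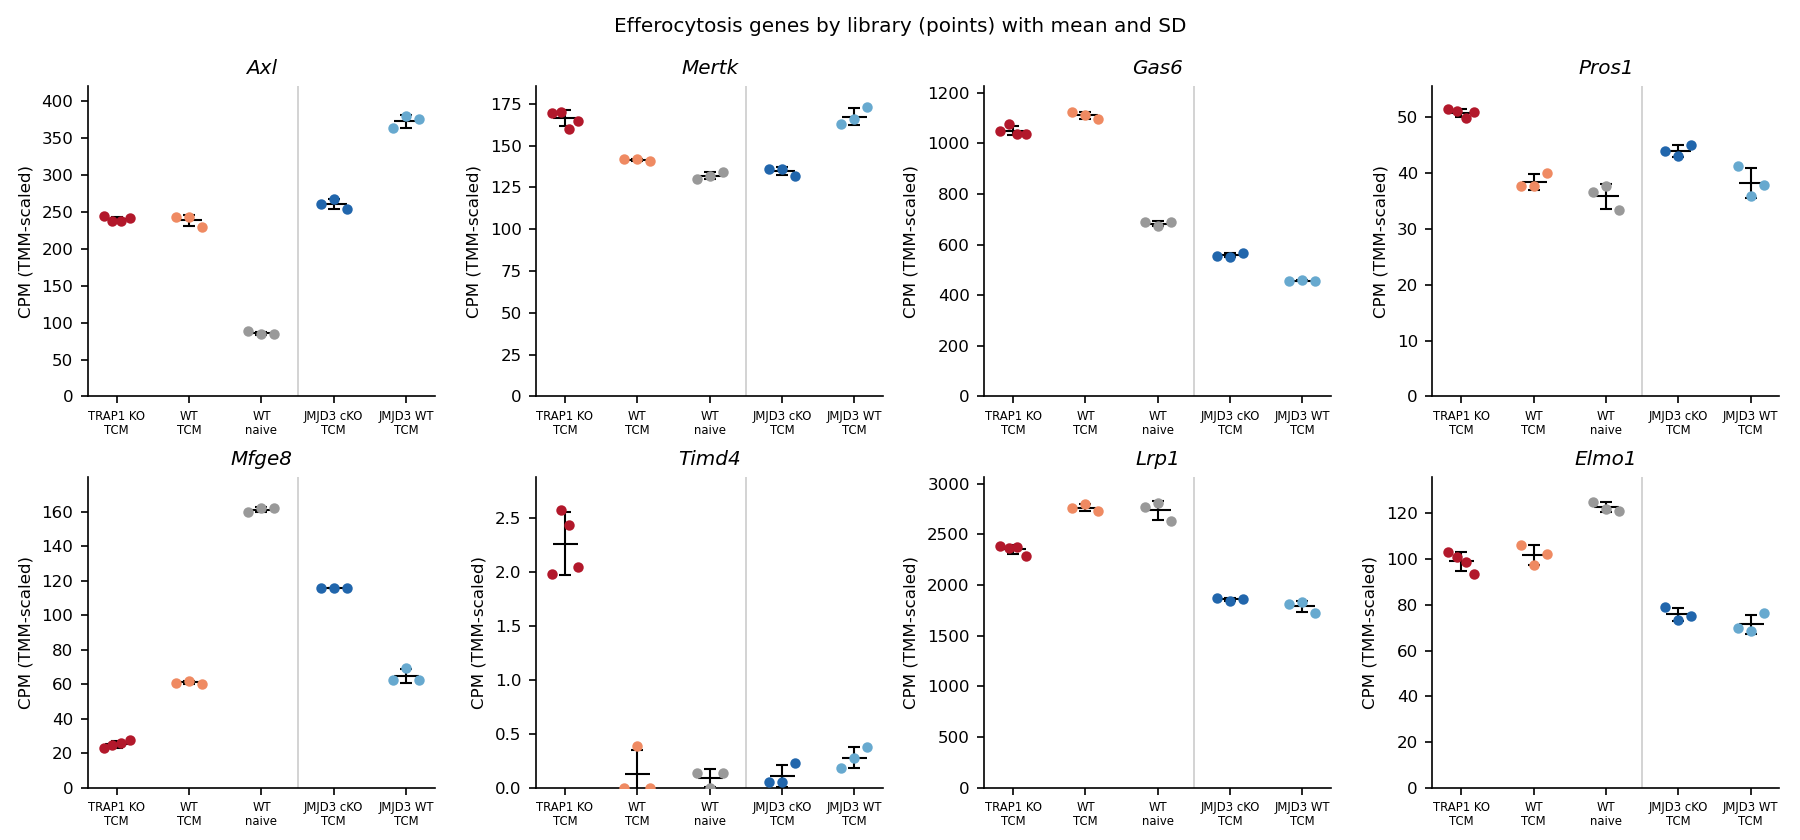
Level in CPM (y axis, from 0) of 8 members in each of the 16 libraries (points), with the mean and SD of each group as a black bar; the grey line parts the JMJD3 line from the other libraries, and the lower arm of the Timd4 bar in WT TCM runs below 0 and is not drawn. Axl was lowest in WT naive (84.5 to 88.2 CPM), Mfge8 highest there (159.5 to 162 CPM), and Timd4 stood apart in TRAP1 KO TCM (1.98 to 2.58 CPM).

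WT TCM was compared with WT naive for the response of wild-type macrophages to the tumor medium. Axl and Gas6, a TAM receptor and its ligand, rose with TCM, and Mfge8, a bridge to integrins, fell. Mertk rose and Elmo1 fell by much less. Of the 8 members tested, 3 were called higher and 2 lower at a Benjamini-Hochberg adjusted p under 0.05, where 42.2% of the 14078 genes tested were called (21.6% higher and 20.6% lower). Axl and Mfge8 were called with a change of at least 2-fold, as were 5.27% of all genes tested.

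Axl stood at 243, 243 and 229.9 CPM in WT TCM, against 88.2, 84.7 and 84.5 CPM in WT naive. Every TCM library was above every naive one, a 2.78-fold rise (log2 fold change 1.48, SE 0.03, adjusted p = 1.4e-64), and 2.66% of the genes tested had a larger change. Mertk, the TAM receptor typical of resting macrophages, had 142, 142 and 141 CPM in WT TCM and 129.9, 132 and 134 CPM in WT naive. The groups did not overlap, and the rise was 1.07-fold (log2 fold change 0.10, SE 0.03, adjusted p = 0.00251). The ratio of Axl to Mertk per kilobase was accordingly 1.45 ± 0.0417 in WT TCM and 0.561 ± 0.0210 in WT naive (SD, n = 3 each). Per kilobase, Axl thus stood above Mertk in WT TCM and below it in WT naive.

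The bridging proteins moved apart. Gas6, the ligand of all TAM receptors, had 1124, 1112 and 1098 CPM in WT TCM and 689.9, 673 and 688 CPM in WT naive, a 1.63-fold rise (log2 fold change 0.70, SE 0.02, adjusted p = 6.1e-57) with no overlap. Mfge8 had 61.0, 62.1 and 60.4 CPM in WT TCM, against 159.5, 162 and 162 CPM in WT naive. Its level with TCM was 0.380 times that without (log2 fold change -1.40, SE 0.04, adjusted p = 1.8e-53), and it ranked 423 among the 14078 genes by size of change. Pros1, the anticoagulant protein S and a ligand of Mertk and Tyro3, had 37.6, 37.6 and 40.0 CPM in WT TCM and 36.6, 37.6 and 33.3 CPM in WT naive and was not called (log2 fold change 0.10, 95% interval -0.01 to 0.20, adjusted p = 0.126). Before rounding, its groups did not overlap either. Gas6 stood at 46.5 ± 2.08 times Pros1 per kilobase in WT TCM and at 30.7 ± 2.28 times in WT naive, and Mfge8 at 0.0299 ± 4.37e-04 times Gas6 in WT TCM and 0.128 ± 0.00259 times in WT naive (SD, n = 3 each).

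Of the remaining members, the adaptor Elmo1 had 106, 97.2 and 102 CPM in WT TCM and 125, 122 and 121 CPM in WT naive. All TCM libraries were lower (log2 fold change -0.27, SE 0.03, adjusted p = 5.4e-11). Lrp1 had 2760.5, 2795 and 2729 CPM in WT TCM and 2768, 2811 and 2627 CPM in WT naive, groups that overlapped and differed by 0.01 on the log2 scale (95% interval -0.02 to 0.05, adjusted p = 0.493). Timd4 had 0, 7 and 0 counts in WT TCM and 3, 0 and 3 counts in WT naive, a ratio of summed rates of 1.44 with an exact 95% Poisson interval of 0.414 to 5.18 (adjusted p = 0.702). It passed the filter on low counts in this fit only through the TRAP1 KO TCM libraries. In bulk RNA a lower level cannot be told apart from fewer cells that express the gene. Fibroblast markers, 8 genes of cells that also express Axl, Gas6 and Mfge8, summed to 0.378 to 0.553 CPM in WT TCM with Col3a1, Dcn and Pdgfra at 0, and to 14.3 to 15.4 CPM in WT naive with none at 0. Neutrophil markers, also 8, summed to 4.10 to 5.47 CPM in WT TCM with Mpo and Ly6g at 0, and to 50.0 to 53.7 CPM in WT naive. The 4 endothelial genes summed to 40.8 to 44.1 CPM in WT TCM and 67.7 to 69.7 CPM in WT naive, with Tie1 at 0 in both. Kdr (log2 fold change -0.96) and Vwf (-0.59) were called lower, and Cdh5 was not called (0.55, edgeR adjusted p = 0.0612). A list of 6 dendritic cell genes summed to 0.945 to 1.52 CPM in WT TCM, with Siglech at 0, and 1.84 to 2.61 CPM in WT naive. The part of these cells in the member changes was not tested.

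Around the members, 9 lists of 125 further genes of the uptake pathway held 111 tested genes, of which 54 were called higher and 31 lower with TCM, beside the 21.6% higher and 20.6% lower over all genes. Among 14 other receptors for dying cells 6 rose and 4 fell, Cd14 with a log2 fold change of 2.03 (840.2 ± 11.6 CPM in WT TCM and 205 ± 3.63 CPM in WT naive) and Itgav, the alpha-v integrin that Mfge8 binds, with -1.03 (101 ± 4.02 and 206 ± 7.53 CPM in the same groups; SD, n = 3). On the list of 12 other soluble bridges 7 rose, led by thrombospondin Thbs1 (log2 fold change 3.93) and with complement C3 at 0.50, and 5 fell (4 without Colec12, a membrane-bound scavenger receptor on that list), with annexin Anxa1 at -0.87. The list medians were -0.02 and 0.12, against -0.01 over all genes tested. Of 10 receptors that sense signals released by dying cells 7 rose (Fpr1 2.00, Cmklr1 0.88) and 2 fell (S1pr2 -0.57, Cx3cr1 -1.58), with a median of 0.49. In the family and partners of Lrp1 8 of 12 rose, among them the adaptor Dab2 (1.17), and 3 fell. Among 18 engulfment genes 9 rose (Vav3 0.57) and 5 fell (Ptk2 -0.62; 3 without WT naive replicate 2), and among 17 phagosome and digestion genes 5 rose and 5 fell, with the lysosomal lipase Lipa at -0.79. Of 10 genes that process TAM receptors or carry their signal, Socs3 (2.40) and Furin (0.11) were among 3 that rose, and Grb2 (-0.13) and the protease Adam10 (-0.16) fell. Of 12 transcription regulators 6 rose, among them Maf (0.84) and Klf2 (1.47), and 3 fell, among them LXR-alpha (Nr1h3, -1.40) and Pparg (-1.09). Both are nuclear receptors known to raise efferocytosis genes, and their relatives Nr1h2 (LXR-beta, 0.23) and Ppard (0.74) were among the genes that rose. Of 6 don't-eat-me receptors and signals 3 rose and 2 fell, of which 1 was still called with DESeq2 or without WT naive replicate 1 or 3 or WT TCM replicate 1 or 3.

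**Figure D2:**
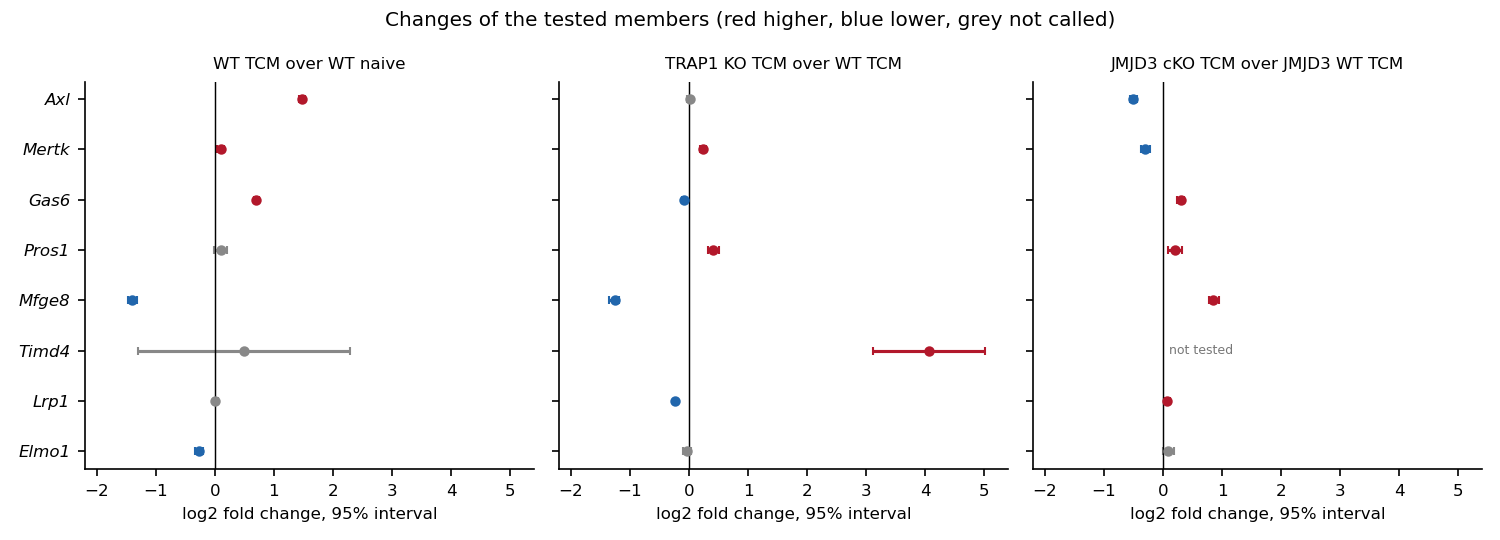
Log2 fold change (x axis) of 8 members in the comparisons of WT TCM over WT naive, TRAP1 KO TCM over WT TCM and JMJD3 cKO TCM over JMJD3 WT TCM; points are the fitted values, bars the 95% interval, and colour the call. Mfge8 was lower in the first 2 panels (-1.40 and -1.26) and higher in the third (0.85). Timd4 in TRAP1 KO TCM (4.06) had a wider interval than the called changes. It was tested only through its level in that group, so its colour is not read as a call.

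The TRAP1 KO TCM libraries were set against WT TCM for the effect of losing TRAP1 in macrophages kept with tumor medium. Timd4 rose far above a level near 0 in the wild type, Pros1 and Mertk rose, and Mfge8 fell further below its wild-type level. Lrp1 and Gas6 fell slightly, and Axl and Elmo1 were not called. Of the 8 members tested, 3 were called higher and 3 lower, where 42.2% of the 14078 genes tested were called (21.2% higher and 21.0% lower). Timd4 passed the filter on low counts only through the TRAP1 KO TCM libraries, where it is high, so its call is not read against these shares. Of the other 7 members, 2 were called higher and 3 lower, and Mfge8 with a change of at least 2-fold, as were 5.58% of all genes tested. WT TCM is also the treated group of the comparison above, so the 2 sets of values share those 3 libraries and are given side by side only.

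Timd4, the phosphatidylserine receptor that marks resident macrophages of many tissues, had 37, 54, 49 and 38 counts in TRAP1 KO TCM, or 1.98, 2.58, 2.44 and 2.05 CPM, against 0, 7 and 0 counts in WT TCM. Each knockout library was above each wild-type one. The ratio of the summed rates was 17.5 with an exact 95% Poisson interval of 8.30 to 44.0 for counting error alone, and the fitted log2 fold change was 4.06 (SE 0.47). Its adjusted p is not given, since a gene that enters the test only through the group where it is high had to differ. For the same reason the interval, the fitted change and the separation of the libraries are description and not a test. The Poisson interval also leaves out the spread between libraries. All 7 wild-type counts came from replicate 2, and the other 2 libraries were at 0. Per kilobase, Timd4 at 1.04 ± 0.136 CPM was still the lowest of the members tested in TRAP1 KO TCM, below Mfge8 at 5.41 ± 0.426 (SD, n = 4).

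Mfge8 had 23.1, 24.7, 25.9 and 27.8 CPM in TRAP1 KO TCM, against 61.0, 62.1 and 60.4 CPM in WT TCM. The knockout libraries lay below all wild-type ones at 0.416 times their level (log2 fold change -1.26, SE 0.04, adjusted p = 1.3e-43), and 3.98% of the genes tested changed more. In WT naive, which shares the fit but is not one of the groups compared here, Mfge8 averaged 161 ± 1.37 CPM (SD, n = 3). The other bridging proteins changed less. Pros1 had 51.4, 51.2, 49.8 and 50.9 CPM in TRAP1 KO TCM and 37.6, 37.6 and 40.0 CPM in WT TCM, a 1.33-fold rise without overlap (log2 fold change 0.41, SE 0.05, adjusted p = 3.1e-12). Gas6 had 1050.5, 1077, 1038 and 1038 CPM in TRAP1 KO TCM and 1124, 1112 and 1098 CPM in WT TCM, at 0.949 times the wild-type level (log2 fold change -0.08, SE 0.02, adjusted p = 2.1e-05).

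Among the TAM receptors, Mertk had 169.8, 170.4, 160.0 and 165 CPM in TRAP1 KO TCM, against 142, 142 and 141 CPM in WT TCM. The rise was 1.18-fold and the groups did not overlap (log2 fold change 0.24, SE 0.03, adjusted p = 2.9e-12). Axl had 244, 237, 238 and 241 CPM in TRAP1 KO TCM and 243, 243 and 229.9 CPM in WT TCM and was not called. Its log2 fold change was 0.01 with a 95% interval of -0.03 to 0.06 (adjusted p = 0.709). The ratio of Axl to Mertk per kilobase was 1.24 ± 0.0355 in TRAP1 KO TCM (SD, n = 4) and 1.45 ± 0.0417 in WT TCM (SD, n = 3).

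Lrp1 had 2384, 2360.5, 2378 and 2283 CPM in TRAP1 KO TCM, against 2760.5, 2795 and 2729 CPM in WT TCM. All knockout libraries were lower, at 0.855 times the wild-type level (log2 fold change -0.23, SE 0.01, adjusted p = 2.2e-18). Elmo1 had 103, 101, 98.6 and 93.3 CPM in TRAP1 KO TCM and 106, 97.2 and 102 CPM in WT TCM, overlapping groups that were not called (log2 fold change -0.03, 95% interval -0.10 to 0.03, adjusted p = 0.446). The per-kilobase ratio of Gas6 to Pros1 was 33.2 ± 0.519 in TRAP1 KO TCM (SD, n = 4) and 46.5 ± 2.08 in WT TCM (SD, n = 3), and that of Mfge8 to Gas6 was 0.0131 ± 0.00117 in TRAP1 KO TCM and 0.0299 ± 4.37e-04 in WT TCM. The 8 fibroblast markers summed to 5.50 to 7.53 CPM in TRAP1 KO TCM with none at 0, and to 0.378 to 0.553 CPM in WT TCM, while the 8 neutrophil markers summed to 3.50 to 4.97 CPM in TRAP1 KO TCM and 4.10 to 5.47 CPM in WT TCM. The 4 endothelial genes summed to 24.9 to 27.4 CPM in TRAP1 KO TCM with none at 0, and to 40.8 to 44.1 CPM in WT TCM with Tie1 at 0. Kdr (log2 fold change -0.34) and Vwf (-1.09) were called lower, and Cdh5 was not called (0.09, edgeR adjusted p = 0.776). The part of these cells in the member changes was not tested.

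**Figure D3:**
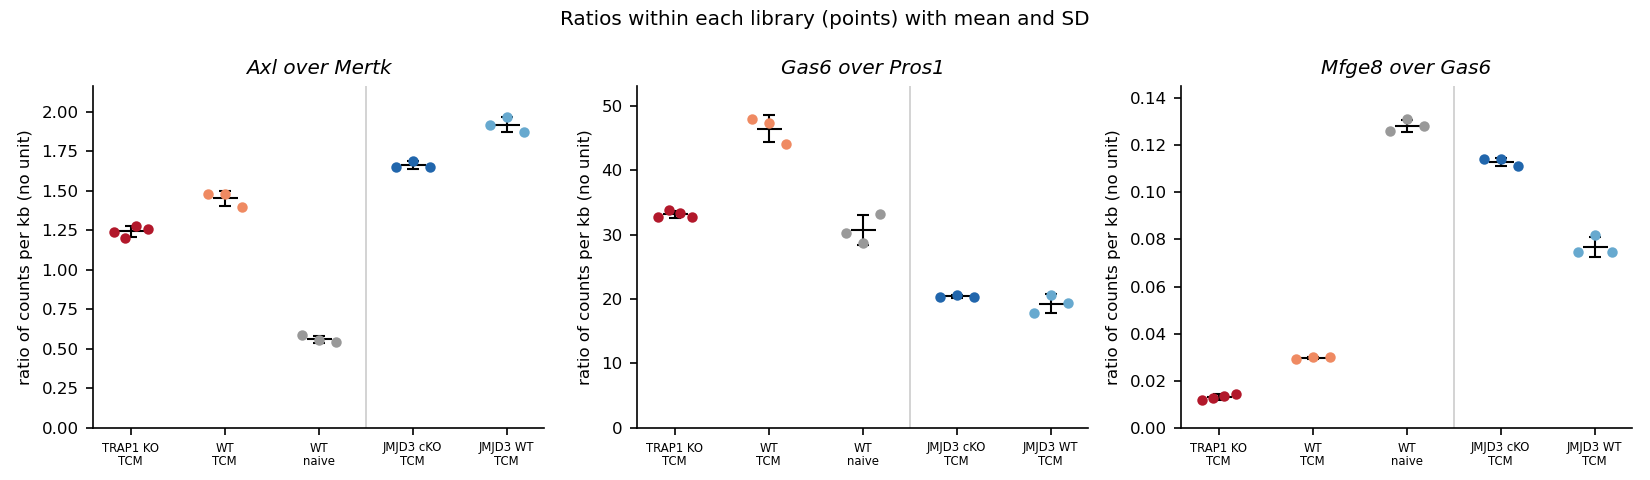
Ratio of Axl to Mertk, of Gas6 to Pros1 and of Mfge8 to Gas6 (y axes, counts per kilobase of exon, no unit, from 0) within each library (points), with the mean and SD of each group as a black bar. Axl over Mertk was lowest in WT naive (0.545 to 0.585), and Mfge8 over Gas6 was lowest in TRAP1 KO TCM (0.0119 to 0.0146).

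Of the 111 further pathway genes tested, 51 were called higher and 32 lower in TRAP1 KO TCM, beside 21.2% higher and 21.0% lower over all genes. Among the 14 other receptors 4 rose (the scavenger receptor Msr1 0.81) and 7 fell, and the median was -0.17 against 0.01 over all genes. On the list of 12 other soluble bridges 8 rose and 4 fell, with a median of 0.13. The largest rise was that of Colec12, which is membrane-bound, and without it 7 of 11 rose and the median was 0.08. Colec12 had 155 ± 5.03 CPM in TRAP1 KO TCM (SD, n = 4) and 19.0 ± 0.0939 CPM in WT TCM (SD, n = 3), a log2 fold change of 3.04, and Lgals3 (-0.86) and Thbs1 (-0.75) fell. Edil3 rose by 0.77 on the log2 scale. Of 10 receptors for released signals 8 were called higher (5 with DESeq2 and 5 without WT TCM replicate 1), among them the formyl peptide receptors Fpr1 (on average 44.4 CPM in TRAP1 KO TCM and 15.7 CPM in WT TCM) and Fpr2 (log2 fold change 1.05), and 2 lower, Cx3cr1 at -1.26. Among TAM processing genes 4 of 10 rose, among them Adam17 (0.29) and Adam10 (0.22), proteases that can release Mertk or Axl from the cell surface, and 1 fell, Socs1 (-0.72). The engulfment list had 7 higher and 5 lower of 18, the family and partners of Lrp1 7 and 3 of 12, and the phagosome list 5 (3 without WT TCM replicate 1) and 7 of 17, with the cholesterol transporter Npc1 at -0.67. Don't-eat-me signals had 2 and 2 of 6, and 1 or both of these counts dropped to 1 when WT TCM replicate 1 or 3 or TRAP1 KO TCM replicate 3 or 4 was left out. Of 12 transcription regulators 6 were called higher and 1 lower, Pparg (-0.80), but 2 were called lower without WT TCM replicate 2 or TRAP1 KO TCM replicate 4 and up to 3 under other scalings.

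JMJD3 cKO TCM was compared with JMJD3 WT TCM for the effect of the conditional knockout in the same medium. Mfge8, Gas6 and Pros1, the 3 bridging proteins, rose, and Axl and Mertk, the 2 TAM receptors tested, fell. Of the 7 members tested, 4 were called higher and 2 lower, where 35.1% of the 13476 genes tested were called (17.3% higher and 17.8% lower). No member was called with a change of 2-fold or more, against 2.21% of all genes tested. Timd4 was not tested in this line.

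Mfge8 had 116 CPM in each of the JMJD3 cKO TCM libraries, against 62.6, 69.6 and 62.6 CPM in JMJD3 WT TCM. The rise was 1.81-fold (log2 fold change 0.85, SE 0.04, adjusted p = 1.6e-20), and 3.67% of the genes tested changed more. Gas6 had 554, 553 and 568 CPM in JMJD3 cKO TCM and 456, 462 and 456 CPM in JMJD3 WT TCM, a 1.23-fold rise with no overlap (log2 fold change 0.30, SE 0.03, adjusted p = 1.5e-12). Pros1 had 43.9, 43.0 and 45.0 CPM in JMJD3 cKO TCM and 41.2, 35.9 and 37.8 CPM in JMJD3 WT TCM. The groups did not overlap and the rise was 1.15-fold (log2 fold change 0.21, SE 0.06, adjusted p = 0.00404). Gas6 over Pros1 per kilobase was 20.4 ± 0.222 in JMJD3 cKO TCM and 19.3 ± 1.46 in JMJD3 WT TCM, with overlapping libraries, and Mfge8 over Gas6 was 0.113 ± 0.00152 in JMJD3 cKO TCM and 0.0769 ± 0.00419 in JMJD3 WT TCM (SD, n = 3 each).

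Axl had 261, 267 and 254 CPM in JMJD3 cKO TCM, against 363, 379.8 and 376 CPM in JMJD3 WT TCM. All knockout libraries were lower, at 0.704 times the wild-type level (log2 fold change -0.51, SE 0.03, adjusted p = 1.5e-18). Mertk had 136, 136 and 132 CPM in JMJD3 cKO TCM and 163, 166 and 173 CPM in JMJD3 WT TCM, also without overlap, at 0.813 times the wild-type level (log2 fold change -0.30, SE 0.03, adjusted p = 1.8e-09). Axl over Mertk per kilobase was 1.66 ± 0.0227 in JMJD3 cKO TCM and 1.92 ± 0.0512 in JMJD3 WT TCM (SD, n = 3 each).

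Lrp1 had 1871, 1842 and 1862 CPM in JMJD3 cKO TCM and 1817, 1829 and 1728 CPM in JMJD3 WT TCM. Its call as higher (log2 fold change 0.06, SE 0.02, adjusted p = 0.0365) was lost without JMJD3 WT TCM replicate 3 (0.03, adjusted p = 0.371) and without JMJD3 cKO TCM replicate 1 (adjusted p = 0.117) or 3 (0.138). The call was also lost with DESeq2 (adjusted p = 0.0823) and with RLE scaling (0.0551). Elmo1 had 78.9, 73.5 and 74.9 CPM in JMJD3 cKO TCM and 69.9, 68.4 and 76.2 CPM in JMJD3 WT TCM and was not called (log2 fold change 0.09, 95% interval 0.00 to 0.19, adjusted p = 0.112). It was called without JMJD3 WT TCM replicate 3 (0.14, adjusted p = 0.0335) and with upper quartile scaling (0.12, adjusted p = 0.0429). Timd4 had 1, 1 and 5 counts in JMJD3 cKO TCM and 3, 4 and 6 in JMJD3 WT TCM, a ratio of summed rates of 0.414 whose exact 95% Poisson interval was 0.140 to 1.12. The 8 neutrophil markers summed to 38.6 to 40.6 CPM in JMJD3 cKO TCM and 21.1 to 25.0 CPM in JMJD3 WT TCM, and the 8 fibroblast markers to 0.953 to 2.03 CPM in JMJD3 cKO TCM and 0.743 to 1.59 CPM in JMJD3 WT TCM. A list of 4 endothelial genes, all detected in both groups, summed to 92.2 to 101 CPM in JMJD3 cKO TCM and 193 to 198 CPM in JMJD3 WT TCM. The 6 dendritic cell genes summed to 4.48 to 5.52 CPM in JMJD3 cKO TCM and 8.43 to 10.7 CPM in JMJD3 WT TCM, and 4 B cell genes to 1.04 to 1.84 CPM in JMJD3 cKO TCM and 2.60 to 2.63 CPM in JMJD3 WT TCM, with none at 0 in either group. The part of other cell types in the member changes was not tested.

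Of 108 further pathway genes tested in this line, 26 were called higher and 44 lower in JMJD3 cKO TCM, beside 17.3% higher and 17.8% lower over all genes. Of 6 don't-eat-me receptors and signals none rose and 5 fell, with the inhibitory receptor Lilrb4a at -0.52 and a list median of -0.30 against 0.01 over all genes. Among TAM processing genes 1 of 10 rose, Vkorc1l1 (0.26), an enzyme of the vitamin K cycle on which Gas6 and protein S depend, and 5 fell, among them the signalling inhibitors Socs1 (-1.02) and Socs3 (-0.95). Among the 14 other receptors 6 rose and 4 fell (Cd300lf -0.87), and on the list of 12 other soluble bridges 3 rose and 5 fell, with Thbs1 at 401 ± 11.7 CPM in JMJD3 cKO TCM and 910.3 ± 28.4 CPM in JMJD3 WT TCM (SD, n = 3 each; log2 fold change -1.17) and C3 at -0.57. Of 17 engulfment genes 2 rose, Dock1 (0.55), a partner of Elmo1, and Dock5 (0.52), and 8 fell. Among those that fell was Dock2 (-0.15), at 449 ± 0.815 CPM in JMJD3 cKO TCM and 501 ± 9.76 CPM in JMJD3 WT TCM. Dock1 had 37.4 ± 1.41 and 25.7 ± 1.49 CPM in these groups (SD, n = 3 each). Receptors for released signals had 5 higher (S1pr1 0.54) and 4 lower (Fpr2 -0.91; 2 without JMJD3 cKO TCM replicate 3) of 9, the family and partners of Lrp1 4 and 4 of 11 (Lrp4 -0.60), the phagosome list 4 and 4 of 17, and the transcription regulators 1 (2 without JMJD3 WT TCM replicate 2) and 5 of 12.

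**Figure D4:**
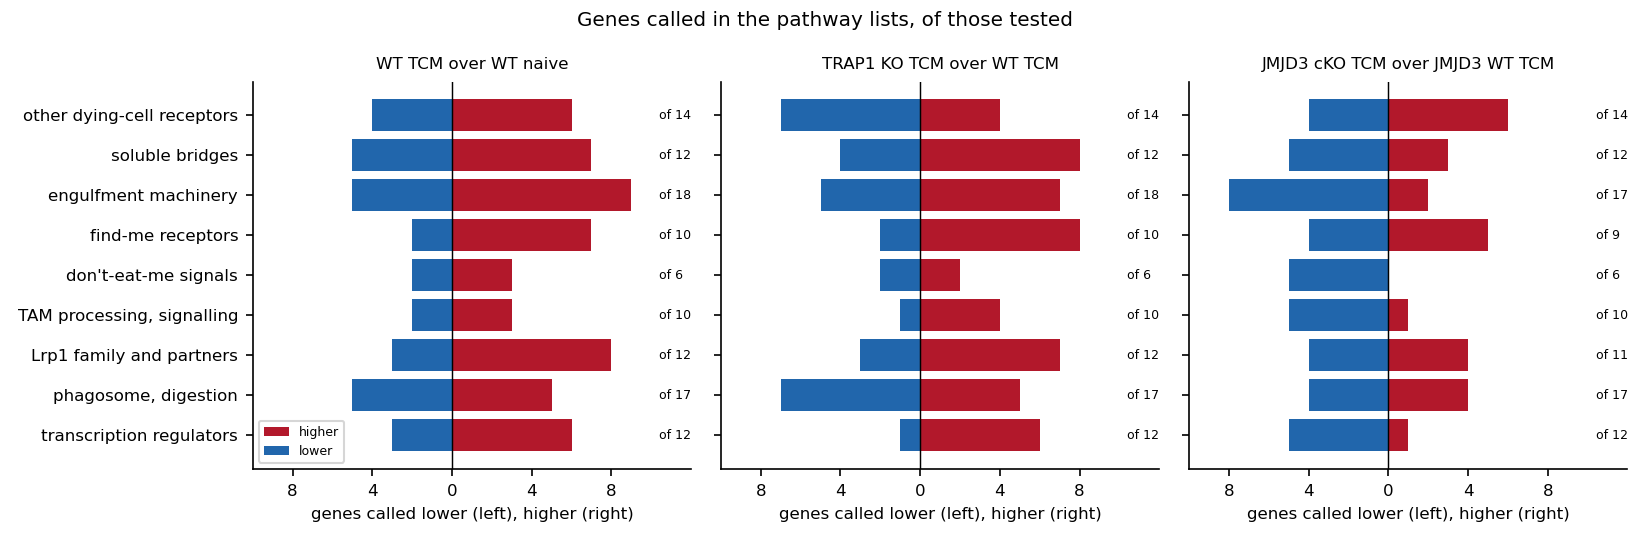
Number of genes called lower (bars to the left) and higher (bars to the right) in each of 9 lists of pathway genes, with the number tested at the right of each row, for the 3 comparisons. In JMJD3 cKO TCM the don't-eat-me list had 5 genes lower and none higher, and in TRAP1 KO TCM the list of soluble bridges had 8 higher, the membrane-bound Colec12 among them, and 4 lower.

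The effects of the 2 knockouts on the members, each against its own wild type, share no library, and their difference was tested in 1 fit of all 16 libraries. Leaving aside Timd4, which entered this fit only through TRAP1 KO TCM, it was called for 6 of 7 members, 3 of them with a higher and 3 with a lower log2 fold change in the TRAP1 knockout, where 37.9% of 14545 genes were called (18.4% higher and 19.5% lower). Mfge8, lower in TRAP1 KO TCM and higher in JMJD3 cKO TCM, had a difference of -2.12 on the log2 scale (SE 0.06, adjusted p = 1.4e-50). Mertk, higher in TRAP1 KO TCM and lower in JMJD3 cKO TCM, had a difference of 0.53 (SE 0.04, adjusted p = 2.2e-19). The difference for Axl was 0.52 (SE 0.04, adjusted p = 1.6e-22) and that for Gas6 was -0.37 (SE 0.03, adjusted p = 1.4e-21). Pros1 rose in both knockouts, and its difference of 0.20 (SE 0.07, adjusted p = 0.0236) was lost when any of 4 libraries was left out, WT TCM replicates 1 and 2, JMJD3 WT TCM replicate 1 and JMJD3 cKO TCM replicate 2, with adjusted p up to 0.159. Lrp1 differed by -0.29 (SE 0.03, adjusted p = 4.3e-16). The fitted difference of Timd4 was 5.28 (SE 0.97), from few counts in every group but TRAP1 KO TCM. Elmo1 was not called (-0.13, 95% interval -0.24 to -0.02, adjusted p = 0.0525), but it was with upper quartile scaling (adjusted p = 0.0239) and when any of 5 libraries was left out, WT TCM replicate 2, TRAP1 KO TCM replicates 1 and 2, JMJD3 WT TCM replicate 3 and JMJD3 cKO TCM replicate 2 (adjusted p 0.0082 to 0.0405). Line and sex differ between the 2 sets along with the deleted gene and cannot be told apart from it.

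Ranked over the 5 groups, Mfge8 spanned 6.35-fold, with WT naive highest, then JMJD3 cKO TCM, JMJD3 WT TCM, WT TCM and TRAP1 KO TCM, and no neighbours overlapped. Axl spanned 4.35-fold, highest in JMJD3 WT TCM and lowest in WT naive, and only TRAP1 KO TCM and WT TCM overlapped as neighbours. Gas6 spanned 2.43-fold from WT TCM down to JMJD3 WT TCM with no overlap of neighbours. Elmo1 spanned 1.72-fold, Lrp1 1.54-fold, Pros1 1.42-fold and Mertk 1.27-fold, and each had neighbours that overlapped. Levels were not tested between the JMJD3 line and the other libraries.

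Genes with the group pattern nearest to a member were sought among 1777 protein-coding genes, by the root mean square difference of the centred log2 group means over the 5 groups. Nearest to Axl were the lactate transporter Slc16a3 (0.0867) and the efflux pump Abcb1a (0.196). Slc16a3 averaged 116 CPM in TRAP1 KO TCM, 104 in WT TCM, 36.7 in WT naive, 130.3 in JMJD3 cKO TCM and 176 in JMJD3 WT TCM. Nearest to Gas6 were the nucleoside transporter Slc29a1 (0.0559) and the kinase Prkcb (0.0603), with Prkcb at 83.5, 85.8, 48.4, 40.6 and 35.0 CPM in the same order. Nearest to Mfge8 were Zfyve28 (0.232) and Tmem158 (0.280), with Zfyve28 at 3.77, 6.89, 15.4, 14.2 and 9.21 CPM in that order. The other members varied by less than 1 on the log2 scale over the groups or stayed under 5 CPM, and no gene was sought for them. The points are 5 group means of 16 shared libraries.

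**Figure D5:**
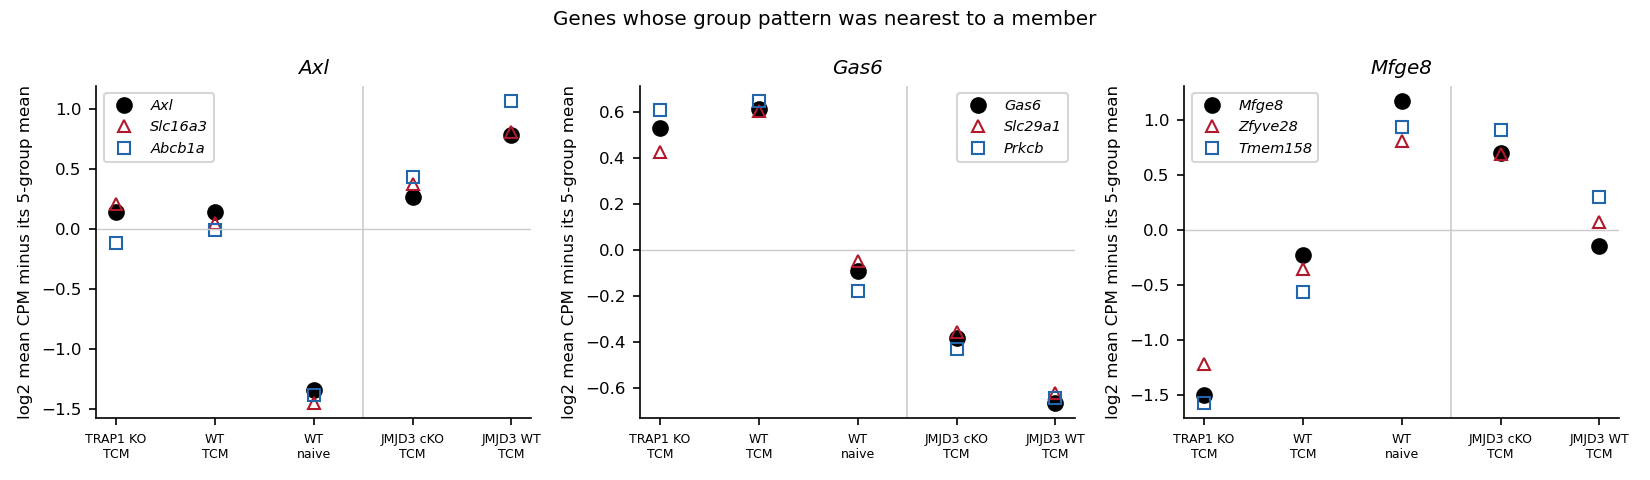
Log2 mean CPM of each group minus the mean over the 5 groups (y axis) for Axl, Gas6 and Mfge8 (filled circles) and the 2 genes nearest to each (open triangles and squares). The nearest gene to Axl, Slc16a3, lay at a root mean square distance of 0.0867 and the nearest to Mfge8, Zfyve28, at 0.232.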

How the data were processed

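The 16 libraries of macrophage RNA were put into 5 groups by their genotype labels. They were depleted of ribosomal RNA, prepared with a TruSeq Stranded kit and read on an Illumina HiSeq, per the labels' protocols. Per the submitters' processing notes, HISAT, StringTie, Bowtie2, RSEM and the build mm10 were used. The sources used here give neither their roles and versions nor the strand setting. For each library the authors deposited 1 table of whole-number counts, used as raw counts. Of 54532 identifiers, 54495 had a symbol in GENCODE M21.

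The test was the quasi-likelihood F-test of edgeR (4.0.16, R 4.3.3), fitted robustly to TMM-scaled counts of the genes that filterByExpr kept (minimum 10 counts). P-values were adjusted by Benjamini-Hochberg over all genes tested, and a gene was called under an adjusted p of 0.05. The TCM and TRAP1 comparisons came from 1 fit of 10 libraries (7 residual degrees of freedom), the JMJD3 comparison from its own 6 libraries (4) and the difference of the knockout effects from all 16 (11). CPM values use TMM scaling over 16 libraries, and levels per kilobase divide by the merged exon length. Alternatives were other scalings and filters, DESeq2 (1.42.0), other fits, a replicate block and leaving out each library. Replicates differed by more than sampling noise (chi-square per degree of freedom 1.74 to 2.72), which does not tell whether they came from separate cultures or animals. The fit was tested on simulated data.

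The members, the 9 pathway lists and the 10 marker lists were chosen with earlier results of these data known. The pathway lists were not matched by level to all genes tested, so the shares called are given side by side only. In the counts for these lists, rose and fell mean called higher and lower, whatever the size of the change. From each pathway list, up to 2 called genes per direction with the smallest adjusted p and at least 5 CPM in a group were taken. Those with a change of at least 0.5 on the log2 scale, and all of the TAM processing list, are given with values, a limit set after the values were seen. Edil3, which the rule did not select with TCM or in TRAP1 KO TCM, is given there as well. So are Nr1h2 and Ppard with TCM and Dock2 in JMJD3 cKO TCM, also chosen after the values were seen. A gene that this rule selects is not reported here.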

Additional observations from a re-analysis of the deposited data

Results flagged for a closer look

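The change in TRAP1 KO TCM over WT TCM was tested against that in JMJD3 cKO TCM over JMJD3 WT TCM. The difference was called for Mfge8, Mertk, Axl, Gas6, Lrp1 and Pros1, where 37.9% of 14545 genes were called. On the log2 scale it was -2.12 for Mfge8, 0.53 for Mertk, 0.52 for Axl, -0.37 for Gas6, -0.29 for Lrp1 and 0.20 for Pros1. Timd4 was flagged too, with a fitted difference of 5.28, but its call is set aside for the reason given below. Mfge8, Gas6 and Lrp1 were called lower in TRAP1 KO TCM and higher in JMJD3 cKO TCM, and Mertk was called higher in TRAP1 KO TCM and lower in JMJD3 cKO TCM. Lrp1 was at the edge of the threshold in the JMJD3 line, and Timd4 was too low to be tested there and entered the test of the difference only through TRAP1 KO TCM, where it is high. No member had a library far from the others of its group in TRAP1 KO TCM, the only group checked. The smaller groups were not checked, and with so few libraries the check can miss an outlying one.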

How the results depend on the processing

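Every count of genes called and of members called in the 3 comparisons and in the difference of the knockout effects stayed within 1.5 times its reported value under the alternatives run. Of the members' fold changes, 247 of 252 under other scalings, filters, tests and fits and 233 of 250 with 1 library left out kept their direction and their side of the threshold. The exceptions were Lrp1 and Elmo1 in JMJD3 cKO TCM, the differences of Pros1 and Elmo1, and members that had not been called. With 1 library left out, the log2 fold change of WT TCM over WT naive ranged over -3.95 (without WT TCM replicate 2) to 1.13 for Timd4, which was also -0.10 without WT naive replicate 2, over -0.01 (without WT naive replicate 3) to 0.03 for Lrp1 and over -0.05 to 0.06 (without WT TCM replicate 1) for Trap1. That of Axl in TRAP1 KO TCM ranged over -0.01 (without WT TCM replicate 3) to 0.02 and that of Kdm6b in JMJD3 cKO TCM over -0.02 (without JMJD3 WT TCM replicate 3) to 0.08. The fitted change of Timd4 in TRAP1 KO TCM ranged over 3.43 to 8.51 and that of Mfge8 over -1.31 to -1.22. Of the other planned counts, mostly of genes called in a pathway list, 15 of 470 and, with 1 library left out, 16 of 342 moved by more than 1.5 times. Of 94 group levels, 28 moved by more than 1 SD under other scalings of the libraries. The cause of these shifts was not tested. Same-numbered libraries did not deviate together (correlations -0.09 to 0.02). With so few libraries per group this cannot exclude a shared animal or culture, and the labels do not say whether the numbers pair libraries. With a replicate block, 5928 genes were called with TCM (5938 without), 5562 in TRAP1 KO TCM (5944) and 4579 in JMJD3 cKO TCM (4728), and Lrp1 lost its call in JMJD3 cKO TCM (adjusted p = 0.0503). Depth limits Timd4, Tyro3 and Adgrb1. Leaving Colec12 out of the list of soluble bridges, an alternative chosen after seeing the data, left its counts within 1.5 times those reported.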
